A study of Rattus norvegicus with 6 samples.

Results

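The nuclear-encoded respiratory chain genes build the protein complexes of the inner mitochondrial membrane that oxidise NADH, pass electrons to oxygen and make ATP. They were taken as every gene symbol of the deposited feature lists that starts with Ndufa, Ndufb, Ndufc, Ndufs, Ndufv, Uqcr, Cox4i, Cox5, Cox6, Cox7, Cox8 or Atp5, and 8 symbols of assembly factors were left out. That gave 86 of 32883 features under 82 symbols, since Cox6b1, Uqcrb, Ndufv3 and Ndufa10l1 each named 2 features. Complex I had 38 features, complex III 9, complex IV 20 plus Ndufa4 and its paralog Ndufa4l2, and complex V 17. Their mRNAs made up 697443 UMIs (unique molecular identifiers, 1 per captured RNA molecule), or 0.373% of the UMIs of the nuclei kept.

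The counts came from single-nucleus RNA-seq of the nucleus accumbens shell, a ventral striatal region involved in reward, in adult Long-Evans rats of 90 to 100 days. Females and males gave 3 libraries each, every one made from the pooled tissue of 4 rats of 1 sex, so that errors and p-values describe the spread between pools and not between animals. No genotype or drug treatment is given for any library. Pools are named below by sex and number.

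Complex I takes electrons from NADH, complex III passes them to cytochrome c, complex IV reduces oxygen, and complex V, the ATP synthase, uses the resulting proton gradient. A few core subunits are made inside the mitochondrion from its own DNA. All other subunits are encoded in the nucleus, translated in the cytoplasm and imported, and some exist as tissue isoforms made from separate genes. In brain, neurons are known to rely strongly on oxidative phosphorylation, while astrocytes and oligodendrocytes are known for active glycolysis.

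The promoters of these genes are shown first because members that are otherwise unrelated in sequence are known to share binding motifs for NRF1, for ETS factors such as GABP, and for YY1. Of the 86 features, 73 (71 distinct genes) matched an entry of the RefSeq promoter table of rat build GRCr8. That build differs from the rn6 build of the counts, and the match was by symbol. Windows of 120 bases before and 30 bases from the annotated start are printed for 6 members whose values are described below, 5′ to 3′ on the gene's strand. Capitals mark a match to an NRF1 consensus (10 positions, 1 of them free), to CCGGAAGT (ETS) or to the YY1 consensus (11 bases), each read on both strands. The windows are chr4:53971206-53971355 on the minus strand for Ndufa5, chr4:161374141-161374290 on the minus strand for Ndufa9, chr2:47794885-47795034 on the minus strand for Ndufs4, chr8:118468103-118468252 on the plus strand for Uqcrc1, chr1:213833594-213833743 on the minus strand for Cox8a and chr3:183680143-183680292 on the minus strand for Atp5f1e.
Ndufa5: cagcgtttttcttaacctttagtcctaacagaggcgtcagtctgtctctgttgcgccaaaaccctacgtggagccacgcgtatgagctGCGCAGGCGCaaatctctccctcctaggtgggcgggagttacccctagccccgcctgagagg
Ndufa9: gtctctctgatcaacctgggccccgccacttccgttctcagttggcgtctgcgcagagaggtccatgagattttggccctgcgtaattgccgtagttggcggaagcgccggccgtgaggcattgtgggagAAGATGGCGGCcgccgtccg
Ndufs4: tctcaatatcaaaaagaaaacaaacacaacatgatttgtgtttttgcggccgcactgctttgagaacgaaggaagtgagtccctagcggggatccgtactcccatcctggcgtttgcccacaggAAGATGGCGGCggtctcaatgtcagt
Uqcrc1: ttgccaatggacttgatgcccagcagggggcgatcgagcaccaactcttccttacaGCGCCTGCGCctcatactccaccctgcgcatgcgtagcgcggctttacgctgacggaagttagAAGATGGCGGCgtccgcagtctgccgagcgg
Cox8a: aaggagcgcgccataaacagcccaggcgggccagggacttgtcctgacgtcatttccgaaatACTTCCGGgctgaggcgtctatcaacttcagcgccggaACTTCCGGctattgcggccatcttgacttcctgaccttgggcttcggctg
Atp5f1e: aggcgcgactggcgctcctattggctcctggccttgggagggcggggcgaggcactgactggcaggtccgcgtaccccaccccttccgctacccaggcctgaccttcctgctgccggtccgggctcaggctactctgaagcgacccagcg

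Counting from 0 at the start base, the NRF1 match began at -32 in Ndufa5, on the opposite strand, and at -64 in Uqcrc1. The YY1 match began at 10 in Ndufa9, at 4 in Ndufs4 and at -1 in Uqcrc1. Cox8a held 2 ETS matches on the opposite strand, at -58 and -20, and Atp5f1e held no match in this window. Over the full table windows of 250 bases before and 50 after the start, the NRF1 motif stood in 13 of the 71 member promoters (18.3%) and in 4.71% of all 27457 promoters. The ETS motif stood in 8 (11.3%), against 4.01% of all promoters, and the YY1 motif in 8 (11.3%), against 0.798%. At least 1 of the 3 motifs stood in 27 member promoters (38.0%) and in 8.90% of all. Member promoters had a median GC content of 55.7%, against 52.3% for all promoters, and 1 pair of matches overlapped (2 NRF1 matches in Ndufa11). A match is a description of the letters and not of binding.

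After filters on UMIs, genes, mitochondrial UMIs and doublets, 34218 of 41974 barcodes were kept. Female pools 1 to 3 kept 17777784, 10516479 and 77238704 UMIs, and male pools 1 to 3 kept 55873956, 14353229 and 11047750. Clusters were formed without the respiratory chain genes and named from marker genes: 20406 nuclei (59.6%) were neuron-like and 7280 (21.3%) glia-like (astrocyte-, oligodendrocyte-, OPC- and microglia-like; OPC stands for oligodendrocyte precursor cell). A further 6115 nuclei (17.9%) lay in clusters with markers of more than 1 class and entered no comparison. The summed neuron markers ranged over 5568 to 8438 UMIs per 1000000 (CPM) in neuron-like nuclei, against 494 to 1654 CPM in glia-like nuclei, with none of the 5 neuron markers at 0 in either. The 7 oligodendrocyte markers summed to 196 to 319 CPM in neuron-like nuclei, against 3369 to 8608 CPM in glia-like nuclei, and the 8 astrocyte markers to 459 to 729 CPM, against 2407 to 3703 CPM. The labels fell into 2 sets by the fields they carry, set A (female pool 3 and male pool 1) and set B (the other 4 pools), and no source used here says what the sets stand for. Libraries stood apart by set: 1.55% and 2.28% of set A barcodes were over the limit of 5% mitochondrial UMIs, against 13.1% to 40.7% in set B, and of the 2001 glutamatergic-like nuclei 1583 came from female pool 3 and 416 from male pool 1. No pair of libraries shared more than 52 barcodes.

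The main question was how the respiratory chain genes differ between neurons and glia of the same pools. As a share of all UMIs the members were lower in neurons: of the 77 members that passed the filter on low counts, 58 fell and 3 rose (edgeR's quasi-likelihood test with library as a block, adjusted p under 0.05). Of all 15950 genes tested, 29.5% were lower and 36.9% higher in neurons. The median log2 fold over the 77 members was -0.53, against 0.09 over all genes. In 60 members the share was lower in neurons in all 6 libraries. Per nucleus the order turned round, since neuron-like nuclei held a median of 5407.5 UMIs and glia-like nuclei 1860: with the number of nuclei as the offset 73 members were higher and 0 lower, with a median of 0.87 over the members against 1.51 over all genes. With the UMIs of cytosolic ribosomal protein genes as the offset, 42 were higher and 0 lower (median 0.27, against 0.89 over all genes). A change of scaling moves all genes together, so the gap between the 2 medians is no separate result in each, while the sign of a member's fold depended on the scaling. With neurons and glia as unpaired groups, that is without the library block, 0 members rose and 5 fell. The counts under the other scalings and without the block stand without the share of all genes called. They are not read as particular to the members.

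**Figure D1:**
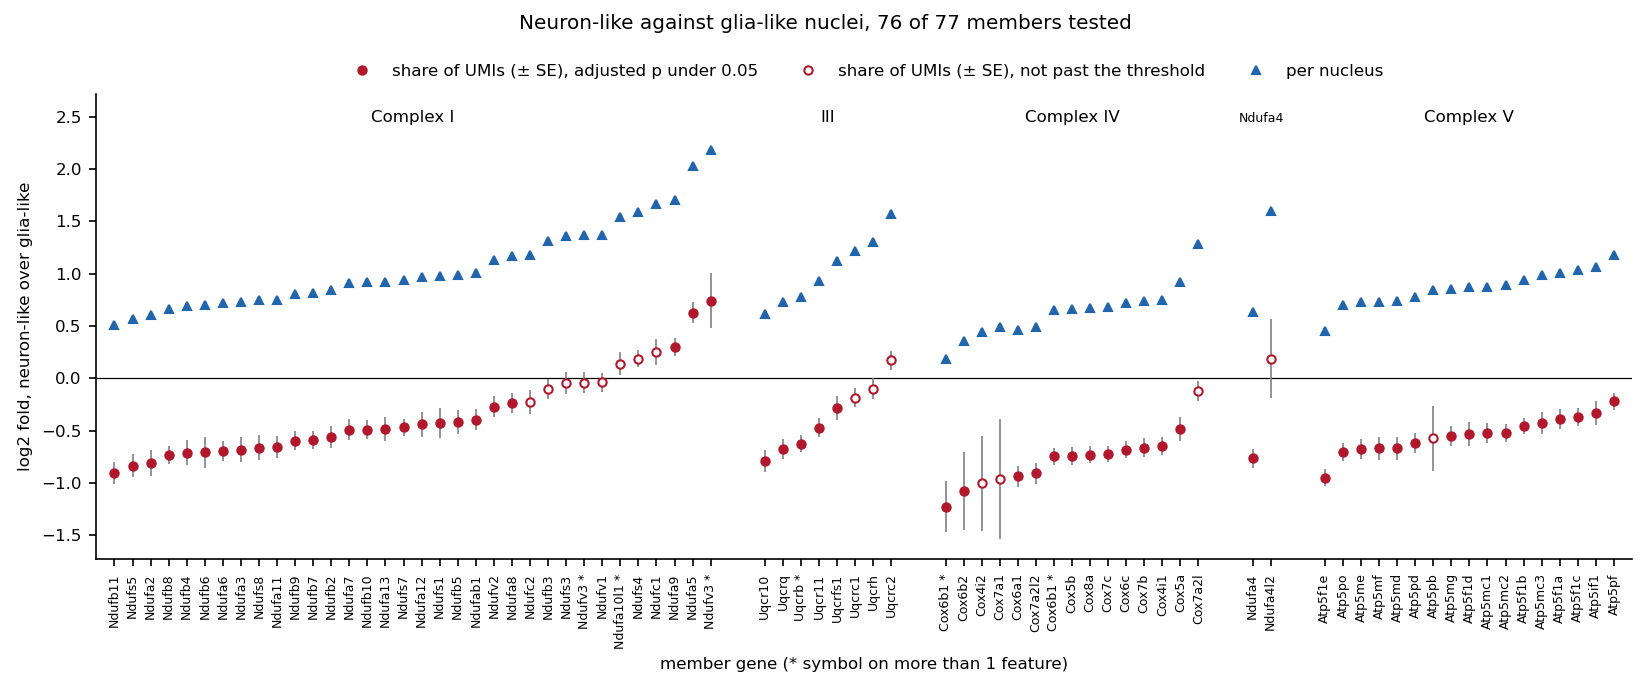
Log2 fold of neuron-like over glia-like nuclei for all but 1 of the 77 members tested, ordered within each complex. Red circles give the share of UMIs with its standard error (filled where the adjusted p was under 0.05) and blue triangles the fold per nucleus: over the 77 members 58 fell and 3 rose as a share, while all triangles drawn lie above 0.

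The sum over the members shows both scales. In neuron-like nuclei the members took 3709, 5455 and 2491 CPM (female pools 1 to 3) and 2845, 4539 and 6725 CPM (male pools 1 to 3). In glia-like nuclei they took 5803, 9078 and 3436 CPM in the female pools and 3719, 7585 and 9244 CPM in the male pools. Neurons were lower in every library, by a ratio of 0.598 to 0.765, although the ranges over libraries overlapped. Per nucleus, neurons held 29.3, 21.5 and 15.5 member UMIs in the female pools and 26.0, 27.3 and 31.7 in the male pools. In glia they were 13.4, 15.7 and 6.63 UMIs in the female pools and 10.8, 15.9 and 17.0 in the male pools. Neurons were higher in every library on this scale, by a ratio of 1.37 to 2.40.

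**Figure D2:**
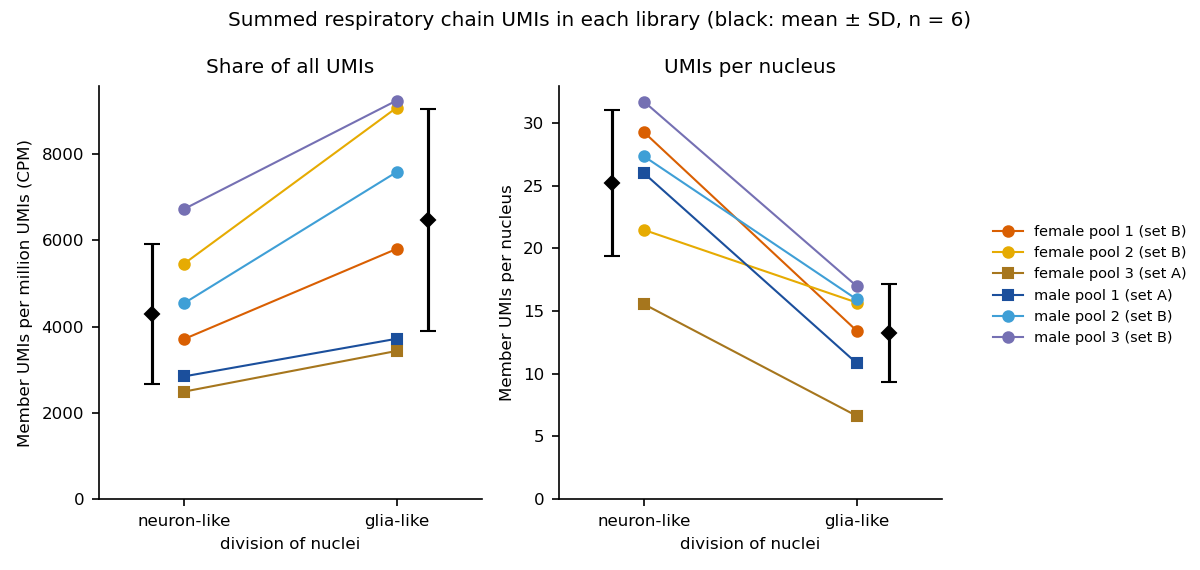
Summed UMIs of the 86 member features in neuron-like (left) and glia-like (right) nuclei of each library, as CPM and as UMIs per nucleus; lines join the 2 values of a library, squares are set A pools and circles set B pools. All 6 lines run up from neurons to glia in CPM and down per nucleus, and the set A pools are the 2 lowest in CPM.

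By complex, complex IV stood lowest in neurons as a share of UMIs. Of its 15 members tested, 12 fell and 0 rose, with a median log2 fold of -0.74, and its summed CPM was 0.515 to 0.667 times that of glia over the 6 libraries. In complex V 16 of 17 fell (median -0.53) and in complex III 5 of 8 (median -0.38). Complex I was the most mixed, with 24 of 35 lower and 3 higher (median -0.44). The difference between complexes was not tested.

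Among the members lower in neurons, Atp5f1e, the epsilon subunit of the ATP synthase central stalk, had the smallest p. It was at 35, 82.2 and 15.7 CPM in neurons of female pools 1 to 3 and at 23.1, 57.2 and 89.2 CPM in those of male pools 1 to 3. In glia it was at 74.2, 161 and 41.1 CPM in the female pools and at 48.5, 130 and 155 CPM in the male pools. The share was lower in neurons within each of the 6 libraries, and the log2 fold was -0.95 (SE 0.08, adjusted p = 1.69e-07). Per nucleus the log2 fold of Atp5f1e was 0.45.

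Several subunits of complex IV followed. Cox8a, a small subunit of cytochrome c oxidase, was at 76.9, 118 and 39.8 CPM in neurons of the female pools and at 56.8, 97.5 and 156 CPM in those of the male pools. In glia Cox8a was at 156, 220 and 80.5 CPM in the female pools and at 92.8, 187 and 237 CPM in the male pools, higher than in neurons of the same library each time (log2 fold -0.73, SE 0.08, adjusted p = 2.58e-06). Cox7c averaged 80.3 ± 44.3 CPM in neurons and 140 ± 63.7 CPM in glia (SD, n = 6 each), with a log2 fold of -0.72 (adjusted p = 1.25e-06). Cox6a1, the isoform found in most tissues, averaged 35.3 ± 21.5 CPM in neurons and 70.9 ± 37.1 CPM in glia (log2 fold -0.94, adjusted p = 1.68e-06). Each of these was lower in neurons in 6 of 6 libraries. Cox7a2l2 (log2 fold -0.91) and the main Cox6b1 feature (ENSRNOG00000024309, log2 fold -0.74) were also among the 6 with the smallest p. Cox6b1 shares its symbol with a second feature and Cox7a2l2 its name with Cox7a2l, so reads may have been split between near copies and these values are uncertain.

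The 3 members higher in neurons all belong to complex I. Ndufa5, an accessory subunit of the arm that takes up NADH and reduces ubiquinone, was at 68.3, 92.3 and 45.5 CPM in neurons of female pools 1 to 3 and at 51.8, 104 and 142 CPM in those of male pools 1 to 3. In glia Ndufa5 was at 45.7, 101 and 31.6 CPM in the female pools and at 35.9, 66.5 and 88.2 CPM in the male pools. Neurons were higher in 5 of 6 libraries, female pool 2 being the exception (log2 fold 0.63, SE 0.10, adjusted p = 6.92e-05). Ndufa9, an accessory subunit at the junction of the membrane arm and the peripheral arm, was at 68.9, 67.9 and 69.5 CPM in neurons of the female pools and at 69.1, 63.2 and 65.2 CPM in those of the male pools. In glia it was at 64.6, 61.9 and 59.0 CPM in the female pools and at 58.4, 62.0 and 57.3 CPM in the male pools. All 6 neuron values of Ndufa9 exceeded the glia value of the same library, with a small fold (log2 fold 0.30, SE 0.09, adjusted p = 0.00925). The minor feature of Ndufv3 (ENSRNOG00000027593) had 490 UMIs in all and a log2 fold of 0.74 (adjusted p = 0.0234), a call kept in 3 of the 6 fits that left out a library. The main Ndufv3 feature had a log2 fold of -0.04 (adjusted p = 0.885).

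Members whose share did not pass the threshold included large core subunits. Uqcrc2, a core protein of complex III, averaged 152 ± 10.4 CPM in neurons, with a log2 fold over glia of 0.17 (adjusted p = 0.122). Ndufs4, an accessory subunit of complex I whose loss causes Leigh syndrome in humans, averaged 139 ± 6.51 CPM in neurons (SD, n = 6), with a log2 fold of 0.19 (adjusted p = 0.061). Ndufv1, the subunit that binds NADH and the flavin cofactor, had a log2 fold of -0.04 (adjusted p = 0.712), and Uqcrc1, the other core protein of complex III, one of -0.18 (adjusted p = 0.0871). These 4 were picked after their values were seen, as contrast to the members that changed.

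Members also differed in how far they varied between libraries. Over the 70 members with at least 1000 UMIs in neurons, the coefficient of variation over the 6 pools ran from 3.73% to 70.7% with a median of 46.7%. Under 20% lay 9 members, among them Ndufa9, Ndufs4, Ndufs1, Uqcrc1, Uqcrc2 and Atp5f1c, the gamma subunit of the central stalk, and 27 members were over 50%. In glia 33 members reached 1000 UMIs, with a median of 47.0% and 3 members under 20% (Ndufs4, Uqcrc2 and Atp5f1c). Ndufs4, Uqcrc2 and Ndufa9 thus had nearly the same share in each pool while Atp5f1e ranged over 15.7 to 89.2 CPM in neurons. These genes were likewise singled out after their values were seen.

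Where a subunit has several genes, the main isoforms were lower in neurons. Cox4i1, the main isoform of subunit 4, averaged 142 ± 70.8 CPM in neurons and 247 ± 122 CPM in glia (log2 fold -0.65, adjusted p = 1.58e-05). Ndufa4, a subunit of complex IV despite its name, averaged 140 ± 82.0 CPM in neurons and 264 ± 152 CPM in glia (SD, n = 6 each; log2 fold -0.77, adjusted p = 4.84e-06). Atp5mc1, Atp5mc2 and Atp5mc3, which encode the same mature subunit c of the ATP synthase rotor, had log2 folds of -0.52, -0.52 and -0.42 and were all lower in neurons. Atp5if1, the inhibitor that blocks ATP hydrolysis by the synthase, had a log2 fold of -0.33 (adjusted p = 0.0232), a call kept in 2 of the 6 fits that left out a library. Cox7a2l, known as a factor of supercomplex assembly, had -0.12 (adjusted p = 0.267). The second Cox6b1 feature (ENSRNOG00000034161) had a log2 fold of -1.23 (adjusted p = 0.000509), and Cox6b2 one of -1.08 (adjusted p = 0.0208), kept in 3 of the 6 fits that left out a library. With astrocyte-like nuclei alone as the glia the Cox6b2 fold was 0.089 (adjusted p = 0.927). The muscle isoforms were close to the detection limit: Cox6a2 had 16 UMIs and Cox8b 27 in all nuclei, and Cox7a1 had 75 with a log2 fold of -0.97 (adjusted p = 0.153). Cox8c, known from testis, and a second Uqcrb feature had no UMI, and 5 other members had under 10.

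Cox4i2, the isoform known to be induced by low oxygen, and Ndufa4l2, a target of the hypoxia-inducible factor HIF-1, had their highest levels in vascular nuclei. In the 396 endothelial/mural-like nuclei Cox4i2 was at 50.6 CPM (53 UMIs), against 0.402 CPM in neurons (54 UMIs) and 1.02 CPM in glia (16 UMIs). Its values in vascular nuclei were 61.3 CPM in female pool 1, 48.6 in female pool 3, and 54.3, 56.7 and 27.9 in male pools 1 to 3, while female pool 2 had 2 such nuclei and no Cox4i2 UMI. Ndufa4l2 was at 58.3 CPM (61 UMIs) in vascular nuclei, against 1.16 CPM in neurons and 1.15 CPM in glia. By pool it was at 46.0 CPM in female pool 1, 54.9 in female pool 3, and 68.4, 28.4 and 55.8 in male pools 1 to 3. In the 5 pools with more than 2 vascular nuclei both genes were higher there than in neurons or glia of the same pool. Female pool 1 and male pools 2 and 3 held only 25, 19 and 15 vascular nuclei, with 65246, 35260 and 35865 UMIs over all genes. The values of both genes in these pools therefore rest on a few UMIs each. Vascular nuclei were too few per library for the fit, so these levels carry no test and were picked after being seen. Between neurons and glia Cox4i2 had a log2 fold of -1.0 (adjusted p = 0.0666) and Ndufa4l2 one of 0.19 (adjusted p = 0.685).

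**Figure D3:**
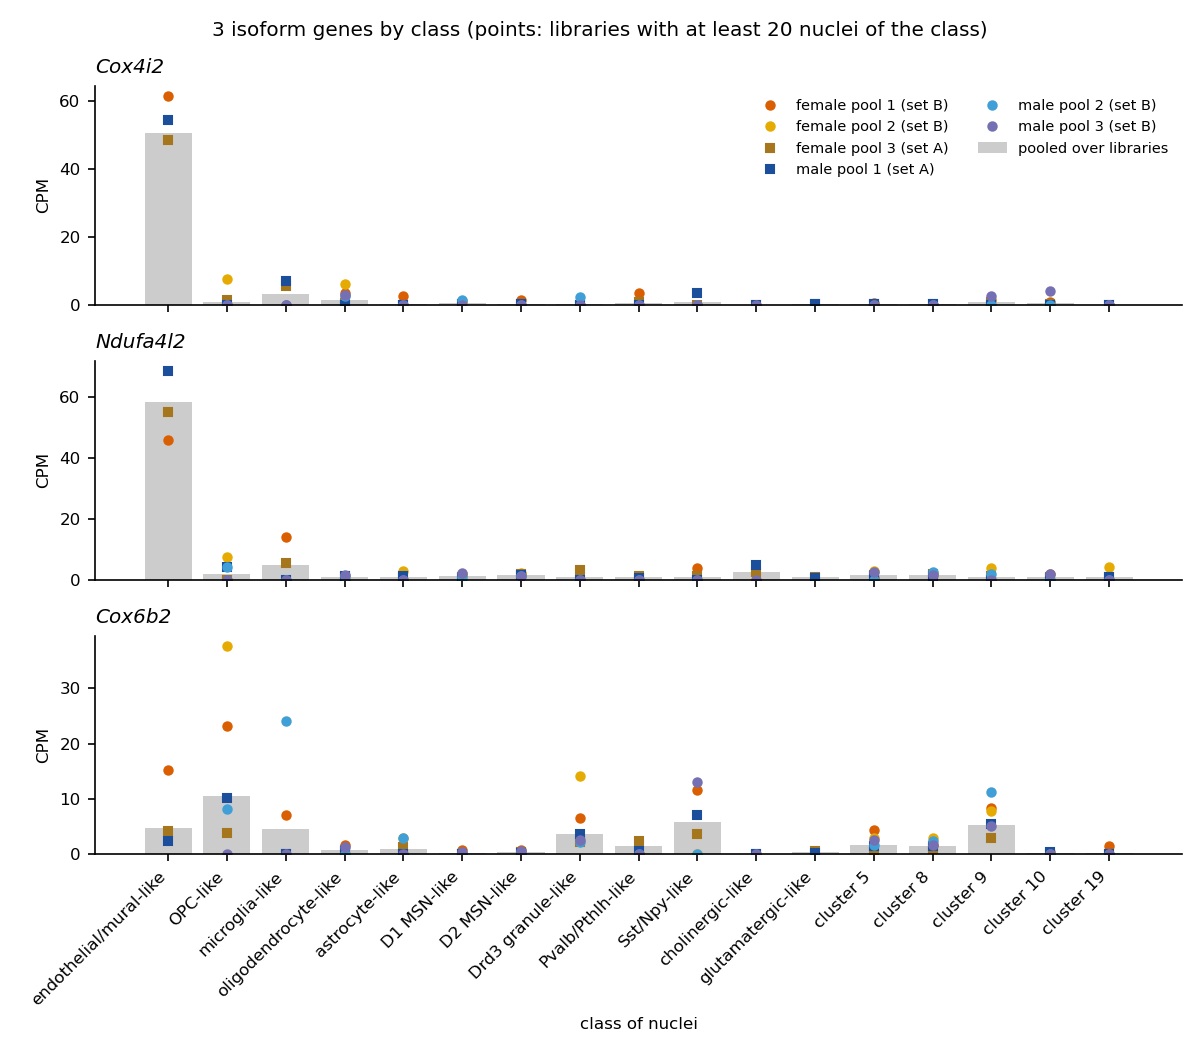
CPM of Cox4i2, Ndufa4l2 and Cox6b2 in each class of nuclei; grey bars pool all libraries and points are libraries with at least 20 nuclei of the class. Cox4i2 (50.6 CPM) and Ndufa4l2 (58.3 CPM) stand far above every other class in endothelial/mural-like nuclei, and Cox6b2 is highest in OPC-like nuclei.

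Cox6b2, described as the testis isoform of subunit 6b, was low but uneven among classes, with 239 UMIs in all. It reached 10.5 CPM in OPC-like nuclei (23 UMIs), 5.80 CPM in Sst/Npy interneuron-like nuclei (12 UMIs), 5.38 CPM in the neurons of cluster 9 (31 UMIs) and 3.72 CPM in Drd3 granule-like neurons (16 UMIs). In D1 MSN-like nuclei it was at 0.185 CPM and in D2 MSN-like nuclei at 0.418 CPM (MSN are the medium spiny projection neurons of the striatum, split by their dopamine receptor). Against the other glia of the same pools Cox6b2 was higher in OPC-like nuclei with a log2 fold of 3.02 (SE 0.61, adjusted p = 9.94e-05), in 5 of 6 libraries. Against other neurons it was higher in cluster 9 (log2 fold 2.73, adjusted p = 4.24e-08, 6 of 6 libraries) and in Sst/Npy interneuron-like nuclei (2.45, adjusted p = 0.000208, 4 of 6), and lower in D1 MSN-like nuclei (-2.82, adjusted p = 0.000317, 6 of 6). These folds depend on few UMIs, and those against D1 MSN-like nuclei on 6 UMIs.

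The other genes of mitochondrial metabolism were set beside the members. Of 8 genes of complex II and the mobile electron carriers, 5 were lower and 0 higher in neurons. The mitochondrially encoded genes had 11 of 13 lower (median log2 fold -0.53), and the cytosolic ribosomal protein genes 66 of 73 lower and 1 higher (median -0.83). Assembly factors, which help to build the complexes without staying in them, went both ways: 17 of 46 were higher and 10 lower, with a median of 0.02. Transcriptional regulators of mitochondrial genes had 3 of 16 higher and 4 lower, and glycolysis genes 6 of 19 higher and 8 lower. Respiratory chain, ribosomal protein and mitochondrially encoded genes thus had lower shares in the same nuclei. The median mitochondrial share was 0.268% in neurons and 0.802% in glia, and its part in the neuron-glia difference was not tested.

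Within each division the member share followed the mitochondrial share of the nucleus, the percentage of its UMIs from mitochondrial DNA. In neurons of female pool 3 the members took 2360 CPM in the 8157 nuclei with under 0.5% mitochondrial UMIs, 4089 CPM at 0.5 to 1%, 5620 CPM at 1 to 2% and 9555 CPM in the 45 nuclei at 2 to 5%. Glia of the same pool had 3000, 3681, 5161 and 7989 CPM in these bins. In male pool 3, of set B, neurons ran over 4359, 5228, 6750 and 8081 CPM, and glia over 6055, 8264 and 10556 CPM in the 3 bins from 0.5% up. The share rose from bin to bin in both divisions of every library. Neurons were below glia in each bin that held at least 20 nuclei of both, apart from 0.5 to 1% and above in the set A pools, where in 3 bins each neurons were higher. With nuclei of under 1% mitochondrial UMIs alone, 37 members were lower and 4 higher in neurons. Female pool 2 had no glia under 1%, so that fit ran without this pool. Its counts stand without the share of all genes and are not read as particular to the members.

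**Figure D4:**
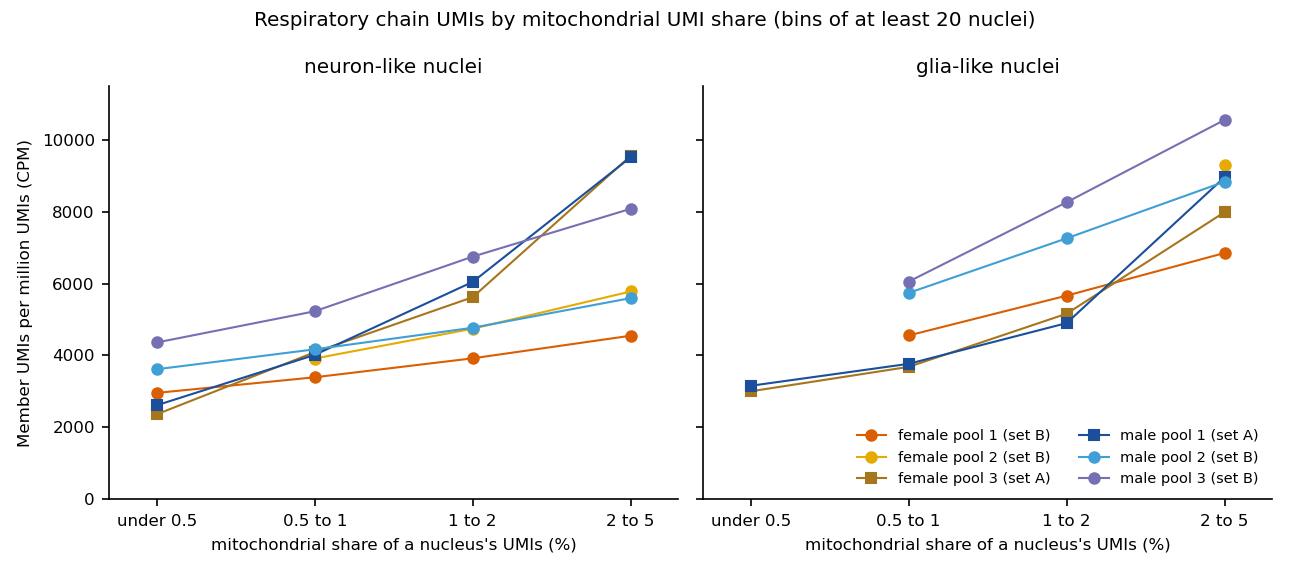
Summed member CPM in neuron-like (left) and glia-like (right) nuclei by the mitochondrial share of their UMIs, 1 line per library, for bins of at least 20 nuclei. Every line rises to the right; in female pool 3 neurons run over 2360 to 9555 CPM.

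Thinning to a fixed depth measures the share of UMIs again, so its order follows from the shares above and is no separate support. The percentages pool the nuclei of all libraries, and female pool 3 gave 8677 of the 20322 neurons used. After thinning each nucleus to 1000 UMIs, 94.3% of neurons and 97.5% of glia held at least 1 member UMI (95% Wilson intervals 94.0 to 94.6% and 97.1 to 97.9%, counting error only), with 84 neurons and 732 glia left out as shallower. Without thinning the shares were 99.96% and 99.59%. For Atp5f1e the thinned share was 4.07% in neurons and 7.56% in glia, and for Ndufa5 it was 6.54% in neurons and 4.89% in glia. No cell class is known to lack these mRNAs, so a background level from free RNA could not be read from such a class.

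Among neurons, the 10 classes that held 20 or more nuclei in all 6 pools were each set against the other neurons of the same pools. These others include the glutamatergic-like nuclei, 1583 in female pool 3 and 416 in male pool 1, so their make-up differs by label set. Pooled over libraries, the members took 2226 and 2279 CPM in the glutamatergic-like clusters 7 and 26, the lowest of the neuron clusters. In Drd3 granule-like neurons, by share of UMIs, 42 of 73 members were higher and 0 lower, against 14.9% of all genes higher and 22.5% lower (median log2 fold 0.37, against -0.07 over all genes). None of the markers that gave this class its name was among its 10 leading genes. Cox7a2l2 (log2 fold 0.73), Ndufb11, an accessory subunit of the complex I membrane arm (0.87), and Atp5f1e (0.71) were higher in 6 of 6 libraries. Atp5f1e was at 62.0, 114 and 33.6 CPM in Drd3 granule-like nuclei of the female pools and at 38.0, 99.0 and 126 CPM in those of the male pools, against 34.4, 81.4 and 15.3 CPM and 22.4, 55.5 and 87.4 CPM in other neurons (adjusted p = 8.98e-08). Ndufa4 (0.52), Atp5mg (0.56) and Uqcrq (0.64) completed the 6 with the smallest p. In the same class 62 of 72 ribosomal protein genes and 11 of 13 mitochondrially encoded genes were higher, and the median UMI count was 2745.5. Per nucleus 63 members were lower and 1 higher, against 78.4% of all genes lower and 2.54% higher (median -0.54, against -0.99 over all genes). Per ribosomal protein UMI 42 were lower and 1 higher, against 69.5% and 3.52% of all genes (median -0.30, against -0.77). By share 18 of 71 were higher in nuclei of under 1% mitochondrial UMIs (13.1% of all genes), and 1 of 73 without the library block (6.98% of all genes).

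Cluster 9, led by Chst9, Col14a1 and Grm8 and given no class name, resembled this pattern: 18 of 74 members were higher and 0 lower by share (11.4% of all genes higher and 15.7% lower, median 0.15). Per nucleus 56 were lower and 1 higher, against 68.5% of all genes lower and 2.24% higher. Per ribosomal protein UMI 28 were lower and 1 higher, against 52.6% and 3.29% of all genes. Besides Cox6b2, the smallest p by share belonged to Ndufa5 (0.43), Cox6c (0.37), Ndufs7, a core subunit of complex I (0.47), Cox7a2l2 (0.40) and Cox4i1 (0.28). There 50 of 73 ribosomal protein genes and 12 of 13 mitochondrially encoded genes were higher as well.

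Cluster 10, led by Lypd6b, Sema3c, Gbx1, Lhx8 and Lhx6, had no class name. Of the 4 markers of the Pvalb/Pthlh list found under their symbols, 3 were high in it (Kit, Kcnc1 and Btbd11), as in the cluster that took that name, but none was among its 10 leading genes. By share 32 of 73 were higher and 2 lower (23.4% and 20.2% of all genes; median log2 fold 0.26, against 0.03 over all genes), per nucleus 68 higher and 0 lower (53.1% of all genes higher; median 0.69, against 0.47 over all genes), and per ribosomal protein UMI 46 higher and 0 lower (28.8% of all genes higher). Leaving out male pool 1 gave 15 higher and 2 lower by share (17.4% of all genes higher), and leaving out female pool 3 gave 19 and 2 (19.8%). In nuclei of under 1% mitochondrial UMIs 20 of 71 were higher (22.4% of all genes), and without the library block 4 of 72 (13% of all genes). Ndufa8, an accessory subunit of complex I, was at 83.4, 130 and 56.9 CPM in cluster 10 of the female pools and at 70.4, 107 and 122 CPM in that of the male pools. Other neurons had 45.6, 58.0 and 31.8 CPM of Ndufa8 in the female pools and 35.5, 41.1 and 68.1 CPM in the male pools, lower in every pool (log2 fold 0.90, SE 0.09, adjusted p = 1.08e-08). Ndufc1 had a log2 fold of 0.86, the complex IV subunit Cox5a 0.61, and Uqcrc1 0.53, each in 6 of 6 libraries. Uqcrc1 was at 55.9, 74.5 and 48.8 CPM in cluster 10 of the female pools and at 56.7, 79.4 and 78.5 CPM in that of the male pools, against 40.9, 53.0 and 34.9 CPM and 39.8, 38.8 and 45.5 CPM in other neurons. Atp5mc3 (0.50) and Atp5mc1 (0.52) were higher, while Atp5mc2 (-0.30, adjusted p = 0.0154) and the complex III subunit Uqcr11 (-0.37, adjusted p = 0.00192) were lower. Complex II and carrier genes were higher in 6 of 8 and glycolysis genes in 11 of 19 with 1 lower, while ribosomal protein genes had 0 of 72 higher and 9 lower.

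In D1 MSN-like neurons 28 of 75 members fell by share and 1 rose, against 20% of all genes lower and 15.6% higher (median log2 fold -0.12). Cox6b1 averaged 40.9 ± 19.4 CPM in D1 MSN-like nuclei and 57.1 ± 29.4 CPM in other neurons (log2 fold -0.39, adjusted p = 0.000109), and Ndufa4 122 ± 71.6 CPM and 149 ± 88.8 CPM (log2 fold -0.21, adjusted p = 0.00103; SD, n = 6). Cox5a (-0.33), Ndufa8 (-0.25) and Cox4i1 (-0.21) were lower in 6 of 6 libraries and Ndufa10l1 was higher (0.16, adjusted p = 0.016). The count was 13 lower (17.6% of those tested, against 16.2% of all genes) and 0 higher without male pool 1. It was 14 (18.7%, against 17.4%) and 1 without male pool 3, and 16 (21.3%, against 18.6%) and 1 without male pool 2, so that in these 3 fits the members' share was near that of all genes. With DESeq2 7 members were lower and 1 higher, against 13.8% of all genes lower and 14.6% higher. In nuclei of under 1% mitochondrial UMIs 2 of 71 were lower and 0 higher (17.8% and 12.6% of all genes). Without the library block the counts were 0 and 0 (6.09% and 3.18% of all genes). In female pool 2, 882 of the 934 D1 MSN-like nuclei lay in cluster 4, while cluster 2 held most of them in the other pools. Per nucleus 25 members were lower and 0 higher (19.5% and 11% of all genes), and per ribosomal protein UMI 4 were lower and 2 higher (13.3% and 23.2%). D2 MSN-like neurons had 5 of 74 members higher and 3 lower (14.7% and 18.6% of all genes), with Ndufs4 (0.15, adjusted p = 0.0148) and Atp5mc2 (0.20) higher in 6 and 5 of 6 libraries and Atp5f1d, the delta subunit (-0.27), Ndufa8 (-0.23) and Ndufc1 (-0.26) lower in 6 of 6. Leaving out a pool gave 2 or 3 higher and 2 or 3 lower. Without scaling factors the D2 split was 0 higher and 8 lower. Per nucleus it was 0 higher and 10 lower, against 7.75% of all genes higher and 25.2% lower.

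Set against each other, D1 MSN-like neurons had 4 of 72 members lower than D2 MSN-like neurons and 0 higher (6.83% of all genes lower and 8.4% higher). Ndufa4 was at 93.6, 183 and 39.7 CPM in D1 nuclei of the female pools and at 53.1, 147 and 216 CPM in those of the male pools, against 108, 213 and 43.4 CPM and 61.0, 159 and 250 CPM in D2 nuclei. It was lower in D1 nuclei in every library, by a log2 fold of -0.19 (SE 0.04, adjusted p = 0.000764). Cox6b1 (-0.26, adjusted p = 0.00489), the core complex I subunit Ndufv2 (-0.17, adjusted p = 0.0165) and Atp5md (-0.35, adjusted p = 0.0302) were also lower in 6 of 6 libraries.

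**Figure D5:**
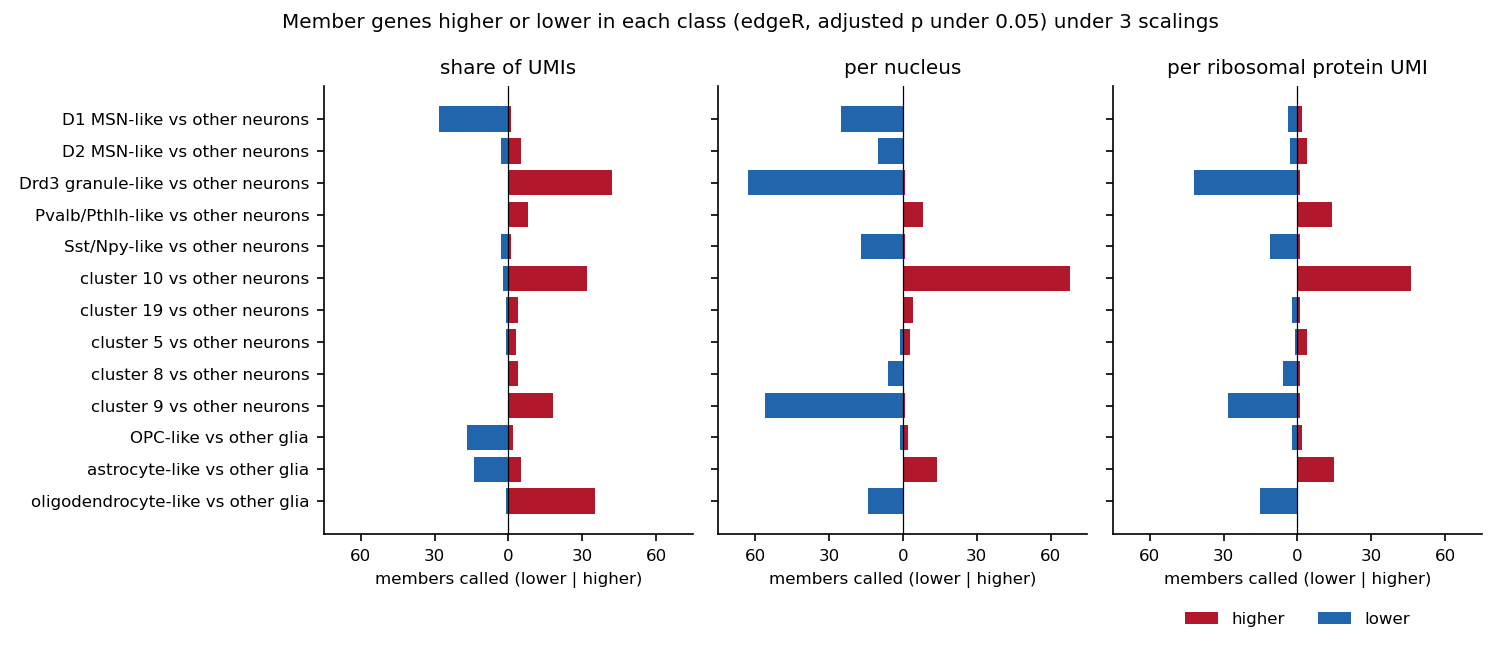
Number of members higher (red, right of 0) and lower (blue, left of 0) in each class against the other neurons or other glia of the same pools, by share of UMIs, per nucleus and per ribosomal protein UMI. The bars of cluster 10 point mainly right in all 3 panels (32, 68 and 46 members higher), and those of Drd3 granule-like neurons, cluster 9 and oligodendrocyte-like glia turn from right to left. A change of scaling moves all genes together: per nucleus 78.4% of all genes were lower in Drd3 granule-like neurons and 68.5% in cluster 9.

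The other neuron classes had few calls. Pvalb/Pthlh interneuron-like neurons had 8 of 74 members higher, near the 10.2% of all genes, and 0 lower (17.0% of all genes). The name rests on Kit, Kcnc1 and Btbd11, the markers also high in cluster 10, while Pvalb was at 6.91 CPM, under the limit of 20 CPM, and of the list Kit alone was among the 10 leading genes. Ndufc1 was at 39.1, 46.7 and 37.5 CPM in those of the female pools and at 39.8, 66.7 and 76.2 CPM in those of the male pools, against 23.6, 31.4 and 21.2 CPM and 21.9, 23.6 and 31.6 CPM in other neurons, with no overlap between the groups (log2 fold 0.80, SE 0.15, adjusted p = 3.89e-05). Ndufa4 (0.44), Ndufa8 (0.48), Atp5mc3 (0.44), Cox7b (0.44) and Ndufa2 (0.55) were also higher. Per nucleus the same class had 8 higher and 0 lower (10.1% of all genes higher), and per ribosomal protein UMI 14 and 0 (11.2%); without female pool 2 the count by share was 13 and 0. Sst/Npy interneuron-like neurons had 1 of 74 higher (Cox6b2, above) and 3 lower (Ndufa10l1, Ndufb3 and Ndufs4, with log2 folds of -0.49, -0.53 and -0.32), against 8.21% of all genes higher and 14.9% lower. Per nucleus 17 of 74 were lower, near the 25.9% of all genes lower on that scale. Without male pool 3 that class had 1 higher and 0 lower by share. Cluster 19, led by the activity-regulated genes Fosb, Nr4a3 and Npas4, had 4 of 73 higher (Atp5f1d, Ndufa7, Atp5if1 and Cox8a) and 1 lower (Ndufv2, -0.45, adjusted p = 0.0133), near the 8.16% of all genes higher and below the 14% lower, and without female pool 3 it had 1 higher and 0 lower. Cluster 5 (led by Bnc2 and Reln) had 3 of 76 higher (Ndufc1, Ndufab1, the mitochondrial acyl carrier protein, and Cox7a2l) and 1 lower (Uqcr11), below the 14.8% of all genes higher and 14.5% lower, with 2 higher and 6 lower without male pool 3. Cluster 8 (led by Mdfic and Eya2) had 4 of 75 higher (Ndufa5, Uqcr11, Ndufb3 and Cox8a) and 0 lower, below the 10.8% of all genes higher and 13% lower. Over the 6 fits that left out a library, Ndufa5 and Uqcr11 were called in 6, Ndufb3 in 2 and Cox8a in 0. Per nucleus 0 members were higher and 6 lower, below the 4.2% of all genes higher and 23.8% lower.

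Among glia, oligodendrocyte-like nuclei had 35 of 70 members higher and 1 lower than other glia by share (22.6% of all genes higher and 30.6% lower; median log2 fold 0.29, against -0.04 over all genes). Uqcr11 was at 115, 229 and 86.7 CPM in oligodendrocyte-like nuclei of the female pools and at 102, 204 and 206 CPM in those of the male pools, against 79.8, 184 and 70.3 CPM and 80.8, 143 and 174 CPM in other glia (log2 fold 0.54, adjusted p = 0.000141, higher in 6 of 6). Cox7a2l2 (0.48), Cox4i1 (0.41), Ndufa11 (0.65) and Cox6a1 (0.50) were higher as well. Uqcrc2 was the 1 member lower, at 122 ± 14.1 CPM in oligodendrocyte-like nuclei and 169 ± 13.2 CPM in other glia (SD, n = 6 each; log2 fold -0.29, adjusted p = 0.0128), with no overlap between the groups. Ribosomal protein genes were higher in 47 of 70 and mitochondrially encoded genes in 12 of 13, while glycolysis genes were higher in 3 of 17 and lower in 10. Per nucleus 0 members were higher and 14 lower (median -0.08, against -0.43 over all genes), per ribosomal protein UMI 0 and 15, and without scaling factors by share 7 and 4. The counts under these other scalings stand without the share of all genes and are not read as particular to the members. Over the fits that left out a pool the members higher ran from 23 without male pool 2 to 50 without female pool 2. Far fewer members were called in nuclei of under 1% mitochondrial UMIs and without the library block, with the counts listed at the end. All these counts also stand without the share of all genes.

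Astrocyte-like nuclei had 5 of 70 members higher and 14 lower (24.1% and 27.4% of all genes; median -0.13). Uqcrc2 was at 189, 181 and 164 CPM in astrocyte-like nuclei of the female pools and at 185, 203 and 172 CPM in those of the male pools, against 126, 158 and 123 CPM and 123, 139 and 106 CPM in other glia (log2 fold 0.45, adjusted p = 0.000492). All 6 astrocyte values lay above all values of other glia. Ndufs1, the largest core subunit of complex I (0.46), Ndufb3 (0.42), Ndufc1 (0.50) and Ndufa10l1 (0.33) were higher in 6 of 6 libraries, while Ndufb11 (-0.51), Cox7a2l2 (-0.46), Uqcrq (-0.50), Ndufa11 (-0.56), Atp5mf (-0.34) and Atp5pd (-0.35) were lower. The lower calls moved with single pools: when male pool 1 was left out 3 were called lower and 5 higher, and for female pool 3 these were 4 and 5, for female pool 1 they were 6 and 4, and for male pool 3 they were 8 and 3. Glycolysis genes were higher in 10 of 17 and lower in 2, and ribosomal protein genes lower in 36 of 70. Per nucleus 14 members were higher and 0 lower, and per ribosomal protein UMI 15 and 0. Both counts stand without the share of all genes and are not read as particular to the members.

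OPC-like nuclei had 2 of 71 members higher and 17 lower than other glia (23.0% and 21.6% of all genes; median -0.21). Cox4i1 was at 133, 301 and 84.7 CPM in OPC-like nuclei of the female pools and at 79.4, 220 and 254 CPM in those of the male pools, against 235, 392 and 114 CPM and 114, 301 and 397 CPM in other glia (log2 fold -0.56, SE 0.11, adjusted p = 8.59e-05). It was lower in OPC-like nuclei in each of the 6 pools. Uqcr11 (-0.54), Atp5f1b, the catalytic beta subunit (-0.48), Atp5mg (-0.42) and Ndufb10 (-0.60) were lower in 6 of 6. Besides Cox6b2, Ndufs4 was higher (0.32, adjusted p = 0.035), a call that was kept in 1 of the 6 fits that left out a library and lost with DESeq2 (adjusted p = 0.205). Glycolysis genes were lower in 11 of 17 with 0 higher. Per nucleus 2 members were higher and 1 lower, and per ribosomal protein UMI 2 and 2, both without the share of all genes beside them. Without female pool 1 the split by share was 1 higher and 11 lower.

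No member was called between females and males. With the label set as a term, 0 of 75 members tested in neurons, 0 of 71 in glia and 0 of 77 in all nuclei were called in either direction, where 0.0438%, 0.0566% and 0.0419% of all genes were. At an unadjusted p under 0.05 there were 0, 7 and 26 members, and DESeq2 also called 0 in each. The unadjusted counts stand without the share of all genes at that threshold and are not read as particular to the members. The median log2 fold of females over males was -0.23 in neurons, -0.19 in glia and -0.31 in all nuclei. In neurons the members took 2491 CPM in female pool 3 and 2845 CPM in male pool 1 within set A, and 3709 and 5455 CPM in female pools 1 and 2 against 4539 and 6725 CPM in male pools 2 and 3 within set B. The ranges of the sexes overlapped within set B. The neuron-glia difference did not pass the threshold for a dependence on sex in any of the 77 members, nor in any other gene (0.0% of 15950 genes), with 0 members at an unadjusted p under 0.05 and 0 called by DESeq2. Over all genes 604 had an unadjusted p under 0.05 for that dependence.

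The label sets differed far more than the sexes. In neurons 53 of 75 members were lower in set A than in set B and 0 higher, with sex as a term, against 21.9% of all genes lower and 13.2% higher (median log2 fold -1.09, against -0.05 over all genes). In glia 57 of 71 were lower and 0 higher, against 14.7% of all genes lower and 4.06% higher (median -1.33, against -0.02). Cox7b had the smallest p in both, with log2 folds of -1.52 in neurons (adjusted p = 0.00265) and -1.83 in glia (adjusted p = 0.000284). Ndufa4, at 43.1 and 60.8 CPM in neurons of female pool 3 and male pool 1, was at 112, 204, 169 and 250 CPM in neurons of female pools 1 and 2 and male pools 2 and 3. Ndufa6, Atp5mc3 and the main Uqcrb feature were also among the 6 with the smallest p in both divisions. In neurons 13 of 13 mitochondrially encoded and 67 of 73 ribosomal protein genes were lower in set A, while of the 16 regulators of mitochondrial genes 0 were lower and 3 higher. Leaving out a pool of set A leaves 1 library there and 2 residual degrees of freedom, with its spread taken from the other pools. Without female pool 3 the count was then 1 member lower in neurons and without male pool 1 it was 0, and in glia 26 and 18, while the median log2 fold stayed at -1.05 and -1.10 in neurons and at -1.36 and -1.22 in glia. Per nucleus 0 members passed the test in neurons, with a median log2 fold of -0.62, against 0.32 over all genes, and with -1.13 for Cox7b, -1.30 for Ndufa4 and -1.32 for the main Uqcrb feature. In glia 30 were lower per nucleus, and per ribosomal protein UMI 20 were higher in neurons and 15 in glia. The counts under these scalings and without a pool of set A stand without the share of all genes. They are not read as particular to the members. The label set cannot be told apart from any other difference between these pools.

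The neuron-glia difference itself depended on the label set for 3 of 77 members, where 2.03% of all genes were called in the same direction and 0.809% in the other. For Ndufs1 the interaction was 0.82 (SE 0.16, adjusted p = 0.00933) in 1 fit over all pools with sex as a term. In separate fits, each scaled on its own, its log2 fold of neurons over glia was -0.09 (set A) and -0.74 (set B). Ndufb5 (0.67, adjusted p = 0.0377) and Ndufc2 (0.63, adjusted p = 0.0439), 2 accessory subunits of the complex I membrane arm, followed. Over the fits that left out a library the count ran from 0 to 12, with 0 without female pool 3 or any 1 of the 3 male pools, and 12 without female pool 2. It was also 0 with DESeq2, without scaling factors, per nucleus and in nuclei of under 1% mitochondrial UMIs. Within set A alone 46 members were lower and 4 higher in neurons, from 2 libraries and 1 residual degree of freedom, and 45 of the 46 were among the 58 called lower over all pools. Within set B alone 60 were lower, among them all 58, and 1 was higher.

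The calls were set beside the promoter motifs. Of the 12 tested members with an NRF1 match, 9 were lower and 1 higher in neurons (median log2 fold -0.48), and of the 53 matched members without, 40 were lower and 1 higher (-0.53). With an ETS match 7 of 8 were lower, as were 42 of 57 without. With a YY1 match 4 of 7 were lower and 1 (Ndufa9) higher, against 45 lower and 1 higher of 58 without. Uqcrc1 held both an NRF1 and a YY1 match and was not called. These counts are descriptions and were not tested.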

How the data were processed

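Raw UMI counts per gene and barcode were deposited as 10x matrices, 1 per library, made by the authors with Cell Ranger 4.0.0 per the file headers and with rn6 per the submitters' processing notes, and no source used here gives the annotation release. Tissue of 4 rats was pooled per library, so p-values describe the spread between pools. From these counts, barcodes with at least 500 UMIs, 300 genes and under 5% mitochondrial UMIs were kept, and the barcodes ranked highest by Scrublet were removed as doublets at 0.8% per 1000 barcodes (2.84% to 13.4% of a library). Clusters came from scanpy 1.11.5 with 3000 variable genes, 30 principal components, 20 neighbours and Leiden resolution 1 (leidenalg 0.10.2), with 305 genes, among them the members, kept out. Of the 30 clusters, a cluster could take a class name when at least 3 of that class's markers were high (at least 20 CPM and 2-fold over the median cluster). The general neuron markers instead counted as high at 3-fold over the lowest cluster, with no CPM limit. A cluster with at least 3 of these high was neuron-like, or mixed where a non-neuronal list also had at least 3 high. A neuron cluster stayed unnamed where 2 or more other lists of single neuron classes also had 2 or more markers high (clusters 8, 19 and 25); the lists for MSN of any type and for GABAergic neurons were not counted here. The Pvalb/Pthlh name also needed a marker among the 10 leading genes, a condition set after cluster 10 was seen and not asked of the other names. The D1 and D2 MSN, Drd3 and other class names are rebuilt from markers and are not the authors' annotation.

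Counts were summed per library and class and tested over all genes with edgeR 4.0.16 (R 4.3.3; filterByExpr, TMM factors, quasi-likelihood test, Benjamini-Hochberg adjustment, threshold 0.05), with library as a block between classes and label set as a term between sexes. Class comparisons leave classes under 20 nuclei in any library out. DESeq2 1.42.0, other scalings, filters and left-out pools were the alternatives. Fits on nuclei of under 1% mitochondrial UMIs dropped any library with under 10 such nuclei in either group compared. They can therefore rest on fewer pools than the main fits. The offset of ribosomal protein UMIs and the fits within a label set were added after seeing the data. The fitting steps were tested on simulated data. CPM are UMIs per 1000000 UMIs of the group; no gene length was used, so levels are not compared between genes. Genes were named by rule: tissue isoforms, and in each comparison the 6 members with the smallest p in each direction among those called; genes named outside it are marked as such, and 1 member that the rule names is not reported here. A likeness search around Cox6a2 was not run because it had 16 UMIs. The members and lists were chosen with earlier results of these data known. Same-sex libraries differed by more than sampling noise (chi-square per degree of freedom of at least 26.3), and the replicate numbers did not pair them. Promoters came from the RefSeq table of GRCr8, matched by symbol.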

Additional observations from a re-analysis of the deposited data

Results flagged for a closer look

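The member sum and the CPM of single isoform genes were tried in 52 groups of 6 libraries. Of these, 1 held a library far from the others, where about 1 in 20 would by chance. In Drd3 granule-like neurons female pool 3 had 9.31 member UMIs per nucleus, against 16.9 to 19.5 in the other pools, a gap of 0.741 of the whole range (limit 0.625).

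The neuron-glia difference varied with the label set for Ndufs1 (interaction 0.82 on the log2 scale, adjusted p = 0.00933), Ndufb5 (0.67, adjusted p = 0.0377) and Ndufc2 (0.63, adjusted p = 0.0439), by edgeR's quasi-likelihood test. None of the 3 was called with DESeq2, without scaling factors, per nucleus, in nuclei of under 1% mitochondrial UMIs (where Ndufb5 was at -0.14), or in 4 of the 6 fits that left out a library.

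Barcodes left out of the comparisons carried member UMIs. In those over 5% mitochondrial UMIs the members took at least 11407 CPM in every library, above the 7798 CPM of the highest library of kept nuclei, and within a library the ratio ran from 2.03 to 6.30. Mixed cluster 12, whose leading genes include Atp5f1e, was at 11376 CPM and mixed cluster 3 at 9467 CPM.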

How the results depend on the processing

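Counts below are members called (higher and lower together), given where a setting moved them by over 1.5 times or turned their balance, and the cause was not tested. The share of all genes called also moved with the scaling. It is not listed here, and for many of these comparisons and settings it is not given above either. The counts are therefore not read as particular to the members. Per nucleus, counts were 73 for neuron against glia, 10 for D2 MSN, 64 for Drd3 granule, 18 for Sst/Npy, 68 for cluster 10, 6 for cluster 8, 57 for cluster 9, 3 for OPC, 14 for astrocyte, oligodendrocyte, 2 for D1 against D2 MSN, 0 for label set A against B in neurons, the label set interaction and 30 for label set A against B in glia. Per ribosomal protein UMI, counts were 42 for neuron against glia, 6 for D1 MSN, 43 for Drd3 granule, 14 for Pvalb/Pthlh, 12 for Sst/Npy, 3 for cluster 19, 7 for cluster 8, 29 for cluster 9, 4 for OPC, 15 for astrocyte, oligodendrocyte, label set A against B in glia, 1 for D1 against D2 MSN, the label set interaction and 20 for label set A against B in neurons. Without the library block, counts were 5 for neuron against glia, 0 for D1 MSN, D2 MSN, Sst/Npy, cluster 19, cluster 5, cluster 8, OPC, oligodendrocyte, D1 against D2 MSN, 1 for Drd3 granule, Pvalb/Pthlh, cluster 9, 4 for cluster 10 and 2 for astrocyte. With DESeq2, counts were 8 for D1 MSN, 4 for D2 MSN, 1 for Sst/Npy, D1 against D2 MSN, 2 for cluster 8, 12 for OPC, 9 for astrocyte and 0 for the label set interaction. Under 1% mitochondrial UMIs, counts were 2 for D1 MSN, cluster 19, cluster 8, 18 for Drd3 granule, 1 for Sst/Npy, OPC, D1 against D2 MSN, 20 for cluster 10, 4 for cluster 9, 7 for astrocyte, 6 for oligodendrocyte, 30 for label set A against B in glia and 0 for the label set interaction. Pools with too few such nuclei were dropped there, so part of a change can come from the missing pools, which was not tested. Within label set A, counts were 8 for D1 MSN, 5 for D2 MSN, 13 for Pvalb/Pthlh, 1 for Sst/Npy, 3 for cluster 5, 7 for cluster 9, 4 for OPC, 11 for astrocyte, 23 for oligodendrocyte and 0 for D1 against D2 MSN. Within label set B, counts were 16 for D1 MSN, 5 for D2 MSN, 26 for Drd3 granule, 0 for Sst/Npy, 20 for cluster 10, 1 for cluster 19, 2 for cluster 8, 11 for OPC, 4 for astrocyte and 22 for oligodendrocyte. Without TMM factors, counts were 8 for D2 MSN, 21 for Pvalb/Pthlh, 4 for Sst/Npy, 5 for cluster 19, 10 for cluster 5, 2 for cluster 8, 11 for astrocyte, oligodendrocyte and 0 for the label set interaction. With no filter on low counts, counts were 7 for D2 MSN, 9 for cluster 5, 2 for cluster 8, 32 for OPC, 10 for astrocyte and 22 for oligodendrocyte. With doublets kept, counts were 6 for cluster 5 and 12 for astrocyte. With at least 1000 UMIs per nucleus, counts were 12 for astrocyte. Leaving out 1 library gave, as lowest and highest, 54 to 61 for neuron against glia, 13 to 29 for D1 MSN, 4 to 6 for D2 MSN, 32 to 41 for Drd3 granule, 6 to 13 for Pvalb/Pthlh, 1 to 5 for Sst/Npy, 17 to 37 for cluster 10, 1 to 4 for cluster 19, 3 to 8 for cluster 5, 2 to 3 for cluster 8, 12 to 20 for cluster 9, 12 to 23 for OPC, 8 to 19 for astrocyte, 24 to 50 for oligodendrocyte, 4 to 5 for D1 against D2 MSN, 0 to 58 for label set A against B in neurons, 18 to 62 for label set A against B in glia and 0 to 12 for the label set interaction, and 0 for each comparison of the sexes. Some log2 folds changed sign. In neuron against glia per nucleus the log2 fold was 0.45 for Atp5f1e, 0.68 for Cox7c, 0.46 for Cox6a1, 0.49 for Cox7a2l2, 0.66 for Cox6b1 (ENSRNOG00000024309), 0.67 for Cox8a, 0.75 for Cox4i1, 0.45 for Cox4i2, 0.19 for Cox6b1 (ENSRNOG00000034161), 0.35 for Cox6b2, 0.49 for Cox7a1, 1.28 for Cox7a2l, 0.63 for Ndufa4, 1.07 for Atp5if1, 0.88 for Atp5mc1, 0.89 for Atp5mc2, 0.99 for Atp5mc3. In neuron against glia per ribosomal protein UMI the log2 fold was 0.076 for Cox7c, 0.053 for Cox6b1 (ENSRNOG00000024309), 0.069 for Cox8a, 0.15 for Cox4i1, 0.68 for Cox7a2l, 0.031 for Ndufa4, 0.47 for Atp5if1, 0.27 for Atp5mc1, 0.28 for Atp5mc2, 0.38 for Atp5mc3. In Drd3 granule per nucleus the log2 fold was -0.18 for Cox7a2l2, -0.036 for Ndufb11, -0.19 for Atp5f1e, -0.38 for Ndufa4, -0.34 for Atp5mg, -0.26 for Uqcrq. In Drd3 granule per ribosomal protein UMI the log2 fold was -0.14 for Ndufa4, -0.10 for Atp5mg, -0.030 for Uqcrq. In cluster 10 per nucleus the log2 fold was 0.082 for Uqcr11, 0.14 for Atp5mc2. In cluster 9 per nucleus the log2 fold was -0.15 for Ndufa5, -0.19 for Cox6c, -0.096 for Ndufs7, -0.17 for Cox7a2l2, -0.26 for Cox4i1. In cluster 9 per ribosomal protein UMI the log2 fold was -0.018 for Cox6c, -0.10 for Cox4i1. In label set A against B in neurons per ribosomal protein UMI the log2 fold was 0.50 for Ndufab1. In the label set interaction with under 1% mitochondrial UMIs the log2 fold was -0.14 for Ndufb5. In neuron against glia with astrocyte-like nuclei as glia the log2 fold was 0.089 for Cox6b2. In neuron against glia with label set A only the log2 fold was -0.11 for Ndufa4l2. Cox7a1, Cox4i2, Cox6b2 and Ndufa4l2 had 75, 149, 239 and 308 UMIs in all nuclei, which limits what their folds can show. Without thinning, 99.96% of neurons and 99.59% of glia held a member UMI. The replicate block left 0 members called between the sexes, as in the fit without it; same-numbered libraries of the sexes had correlations of -0.752 to 0.329 in neurons and -0.677 to 0.253 in glia, so the numbers did not pair them.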
